A study of Mus musculus with 2 samples.

Results

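The genes described here were the sine oculis homeobox genes *Six2*, *Six3*, *Six4* and *Six6* and the eyes absent genes *Eya1*, *Eya2*, *Eya3* and *Eya4*, chosen by their symbols: 8 of the 19124 genes that had at least 1 UMI (a molecule counted by its unique molecular identifier) in the cells kept. All 8 were present in both libraries. The matrices hold 2 more genes of these families, which were not analysed here. Cells came from the manually dissected ocular area of C57BL/6J mouse embryos at the 26-somite stage (E9.25), from 1 wild-type embryo (WT) and 1 *Mab21l1*-null embryo (KO), each giving 1 single-cell RNA-seq library by 10x Chromium 3′ v3. *Mab21l1* encodes a MAB21-domain protein that mice need to form a lens, and the sources used here do not say which part of the gene the null allele lacks. With 1 embryo per genotype no difference had a replicate check, so no test was made, and every direction between the libraries rests on their labels.

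Sine oculis proteins are homeodomain transcription factors that carry, beside the homeodomain, another conserved domain through which they bind partner proteins. Eya proteins have no DNA-binding domain of their own, and act as co-activators of sine oculis proteins and as protein phosphatases. Together with Pax and Dach genes they form a network known from the fly eye and used again in vertebrate placodes, muscle, kidney and sense organs. *Six3* and *Six6* belong to the subgroup that works mainly with Groucho/Tle co-repressors. *Six3* is needed for the lens placode and the anterior forebrain, and *Six6* for the retina and pituitary. *Six2* is best known from kidney progenitors and craniofacial mesenchyme, and *Six4* from muscle and sensory ganglia.

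The homeobox, the 180-base stretch that encodes the homeodomain, is shown for the 4 sine oculis genes so that their likeness in sequence can be set beside their likeness in expression. The bases were read from the principal GENCODE M21 transcripts (GRCm38) on the strand of each gene, and capitals mark bases that differ from *Six3*.
Six3: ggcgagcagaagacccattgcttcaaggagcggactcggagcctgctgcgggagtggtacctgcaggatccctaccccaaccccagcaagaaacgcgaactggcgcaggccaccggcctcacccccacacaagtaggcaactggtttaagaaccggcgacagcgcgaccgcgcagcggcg
Six6: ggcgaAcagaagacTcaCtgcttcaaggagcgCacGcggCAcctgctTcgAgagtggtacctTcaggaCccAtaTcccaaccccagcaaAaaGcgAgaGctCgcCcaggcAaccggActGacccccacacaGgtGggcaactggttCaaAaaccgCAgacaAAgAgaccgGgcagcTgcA
Six2: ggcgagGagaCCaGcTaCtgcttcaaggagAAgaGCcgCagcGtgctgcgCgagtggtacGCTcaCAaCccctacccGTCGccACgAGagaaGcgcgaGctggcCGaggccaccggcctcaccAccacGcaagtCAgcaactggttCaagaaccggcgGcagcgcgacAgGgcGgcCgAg
Six4: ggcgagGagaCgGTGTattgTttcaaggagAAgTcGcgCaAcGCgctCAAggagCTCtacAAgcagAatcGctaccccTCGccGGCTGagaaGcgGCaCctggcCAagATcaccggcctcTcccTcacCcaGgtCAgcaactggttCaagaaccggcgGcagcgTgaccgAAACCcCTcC
The *Six6* homeobox differed from that of *Six3* at 34 bases, the *Six2* homeobox at 42 and the *Six4* homeobox at 58, giving base identities of 81.1%, 76.7% and 67.8%. The longest run of identical bases between the whole *Six3* and *Six6* transcripts was 20 bases, and between *Six2* and *Six3* it was 56 bases.

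The 4 genes lie in 2 pairs on the genome (GRCm38). *Six3* (chromosome 17, 85613608 to 85629302, plus strand) and *Six2* (chromosome 17, 85684277 to 85688274, minus strand) were separated by 55.0 kb, and *Six6* (chromosome 12, 72939892 to 72944899, plus strand) and *Six4* (chromosome 12, 73099609 to 73113456, minus strand) by 154.7 kb. As the members of each pair were highest in different cell classes (below), the 250 bases before the RefSeq start (GRCm38.p6) of *Six3* (chr17:85620584-85620833, plus strand), *Six2* (chr17:85688255-85688504, minus strand) and *Six6* (chr12:72939632-72939881, plus strand) are given 5′ to 3′ on the strand of the gene, with CCAAT or its reverse complement in capitals.
Six3: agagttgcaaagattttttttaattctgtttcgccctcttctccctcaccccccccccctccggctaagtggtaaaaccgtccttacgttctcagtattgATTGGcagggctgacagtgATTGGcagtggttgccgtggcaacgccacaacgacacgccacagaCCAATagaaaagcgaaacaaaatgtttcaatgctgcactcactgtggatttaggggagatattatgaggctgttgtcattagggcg
Six2: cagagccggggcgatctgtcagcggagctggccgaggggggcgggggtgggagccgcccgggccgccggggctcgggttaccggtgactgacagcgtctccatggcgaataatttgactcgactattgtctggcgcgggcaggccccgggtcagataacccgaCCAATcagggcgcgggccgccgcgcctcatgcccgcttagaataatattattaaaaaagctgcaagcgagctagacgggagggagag
Six6: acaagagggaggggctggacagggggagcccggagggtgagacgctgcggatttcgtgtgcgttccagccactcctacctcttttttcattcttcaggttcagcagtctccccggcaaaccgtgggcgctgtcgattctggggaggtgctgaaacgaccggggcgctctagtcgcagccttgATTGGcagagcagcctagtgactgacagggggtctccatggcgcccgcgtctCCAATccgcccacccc
CCAAT on either strand was present in 33.8% of all 32851 RefSeq windows of this length. Of the *Six4* windows, not shown, that at chr12:73113426-73113675 held CCAAT and that at chr12:73113246-73113495 did not. The windows of *Eya3* and *Eya4*, also not shown, held none. None of the 3 windows shown held TATAAA (12.4% of all windows), TAATTA (4.84%) or TGATAC (4.64%) on either strand. This says only that those letters were not there. GC content was 48.8% for *Six3*, 64.8% for *Six2* and 62.8% for *Six6*, against a median of 52.4% over all windows.

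The Eya genes are spread over the genome. *Eya1* lies on chromosome 1, 14168954 to 14310235, *Eya2* on chromosome 2, 165595032 to 165771727, *Eya3* on chromosome 4, 132638987 to 132724765 and *Eya4* on chromosome 10, 23102963 to 23350786. Exons of *Six3* overlap exons of *Six3os1* and *Gm28528* on the opposite strand, and an exon of *Six6* overlaps *4930447C04Rik* there. Whether counting used the strand is not given in the sources used here. Whether any reads of these partners entered the *Six3* and *Six6* counts was not checked. The other 6 members overlap no exon of another gene.

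After the study's filter of 1500 to 8000 genes per cell and a limit of 5% mitochondrial UMIs, 1680 cells with 41880035 UMIs were kept in the WT-labelled library and 2404 cells with 52430844 UMIs in the KO-labelled library. The median cell held 21037 and 18135 UMIs, and 15 cell barcodes occurred in both libraries. *Mab21l1* stood at 20.3 UMIs per 1000000 UMIs (CPM) over all kept cells of the WT-labelled library and at 32.5 CPM in the KO-labelled library, against its label, although it was lower in lens placode-like cells, at 122 [98.4, 149] and 52.9 [35.1, 76.4] CPM. 2337 of the 4084 cells were placed by marker genes in 11 cell classes, with none of the 8 genes among the markers. The classes ranged from 53 surface ectoderm-like to 374 neural retina-like cells. Lens placode-like cells numbered 33 and 23, with 772195 and 529339 UMIs in all. Throughout, values are given for the WT-labelled library first, a level is the UMI sum of a class per 1000000 UMIs of that class (CPM), and brackets hold exact 95% intervals (Poisson for levels, Clopper-Pearson for shares of cells) that cover counting error only. Each captured transcript is counted once, at its 3′ end, so levels of different genes can be compared without dividing by length.

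*Pax6*, the master regulator of eye development, had no part in the split of lens placode-like from surface ectoderm-like cells, but is a marker of the optic vesicle gate. In lens placode-like cells it was 4.37 [3.16, 6.16] and 2.57 [1.82, 3.68] times as high as in surface ectoderm-like cells, at 391 and 276 CPM. It was also high in neural retina-like (309 and 266 CPM) and pigment epithelium-like cells (396 and 370 CPM). *Pax6* therefore cannot tell placode RNA from optic vesicle RNA in this class. The 4 markers used for the split were *Sox2*, *Prox1*, *Cdh2* and *Dmrta2*, of which 3 were 2-fold or more above all other cells. Among its 10 leading genes were the ectoderm markers *Epcam*, *Krt8*, *Krt18* and *Cdh1*, and also *Cldn7*, listed here for the ectoderm around the placode. 8 of the 56 lens placode-like cells lay close to the split. Of the split markers, *Dmrta2* is also listed here for the forebrain and was among the 10 leading genes of forebrain-like cells. Whether optic vesicle or forebrain RNA put cells on the placode side was not tested.

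*Six3* was an eye and forebrain gene in these cells. In lens placode-like cells it reached 299 [262, 340.3] and 215 [178, 259] CPM, on 231 and 114 UMIs. Neural retina-like cells held 264 [248, 279.7] and 265 [252, 277] CPM and ventral optic vesicle-like cells 224 [211, 239] and 243 [231, 256] CPM. Lens placode-like and neural retina-like cells of the WT-labelled library were thus at the top of the order and did not differ from each other beyond counting error, with a ratio of 1.13 [0.980, 1.31]. Pigment epithelium-like cells (131 and 132 CPM) and forebrain-like cells (123 and 109 CPM) followed. Neural crest-like cells held 73.2 and 73.8 CPM, of which 3 cells contributed 83.9% and 51.7%, and their ratio between the libraries, 1.01 in these classes, was 3.40 with classes from clusters. Surface ectoderm-like cells held 62.5 and 83.0 CPM. The remaining classes were low, with 9.18 and 6.05 CPM in Foxc-high mesenchyme-like cells, 6.86 and 6.04 in Alx-high mesenchyme-like cells, 12.8 and 10.8 in endothelium-like cells and 4.38 and 5.78 in erythrocyte-like cells. Erythrocyte-like cells are not known to use *Six3*. A *Six3* UMI was held by 2 of 38 and 4 of 52 of them, and the highest cell gave 66.7% and 72.7% of these UMIs. Of the lens placode-like cells 32 of 33 and 21 of 23 held one, although the median erythrocyte-like cell held more UMIs (34642.5 and 33621.5 against 20372 and 19658). Whether free RNA was more plentiful among lens placode-like cells was not tested.

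*Six6* followed *Six3* into the optic vesicle and exceeded it there. It was highest in neural retina-like cells, at 438 [418, 458] and 503 [486, 521] CPM, and in ventral optic vesicle-like cells, at 421 [402, 440.1] and 498 [480.3, 516] CPM, and these classes did not differ beyond counting error within either library. Pigment epithelium-like cells held 229.5 and 226 CPM. Lens placode-like cells held 117 [93.7, 143] and 239.9 [200.01, 285] CPM on 90 and 127 UMIs, so that they stood at about the level of pigment epithelium-like cells in the KO-labelled library and well under it in the WT-labelled library. Neural crest-like cells held 87.6 and 136 CPM, forebrain-like cells 85.5 and 67.2 CPM and surface ectoderm-like cells 22.9 and 51.3 CPM. Low values were counted in Foxc-high mesenchyme-like cells (16.2 and 13.4 CPM), Alx-high mesenchyme-like cells (8.50 and 13.8 CPM), endothelium-like cells (9.23 and 15.4 CPM) and erythrocyte-like cells (8.03 and 4.20 CPM). The mean levels in neural crest-like cells came from few cells: 8 of 37 and 13 of 38 held a *Six6* UMI, and the 3 cells with the most contributed 77.6% and 53.2% of the *Six6* UMIs of the class.

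The number of *Six6* UMIs per *Six3* UMI, which needs no scaling between libraries, differed between the neural classes and the lens placode-like class. It was 1.66 [1.54, 1.79] and 1.90 [1.79, 2.02] in neural retina-like, 1.75 [1.56, 1.97] and 1.71 [1.51, 1.93] in pigment epithelium-like, and 1.88 [1.74, 2.03] and 2.05 [1.92, 2.18] in ventral optic vesicle-like cells. Forebrain-like cells had more *Six3* than *Six6*, with 0.693 [0.588, 0.815] and 0.616 [0.513, 0.737]. Lens placode-like cells had 0.390 [0.302, 0.499] in the WT-labelled library and 1.11 [0.858, 1.45] in the KO-labelled library, whose intervals did not overlap. Surface ectoderm-like cells had 0.367 [0.166, 0.753] and 0.618 [0.341, 1.10], and neural crest-like cells 1.20 [0.826, 1.74] and 1.85 [1.34, 2.58]. Classes with few UMIs of both genes also reached the values of the optic vesicle-like classes, with 1.76 [1.05, 3.00] and 2.21 [1.26, 4.02] in Foxc-high and 1.24 [0.670, 2.31] and 2.29 [1.34, 4.02] in Alx-high mesenchyme-like cells. Endothelium-like cells had 0.720 [0.370, 1.37] and 1.43 [0.860, 2.40], and erythrocyte-like cells, on at most 11 UMIs of either gene, 1.83 [0.621, 6.04] and 0.727 [0.254, 1.99]. The intervals of the libraries overlapped in all these classes other than the lens placode-like and neural retina-like ones.

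**Figure D1:**
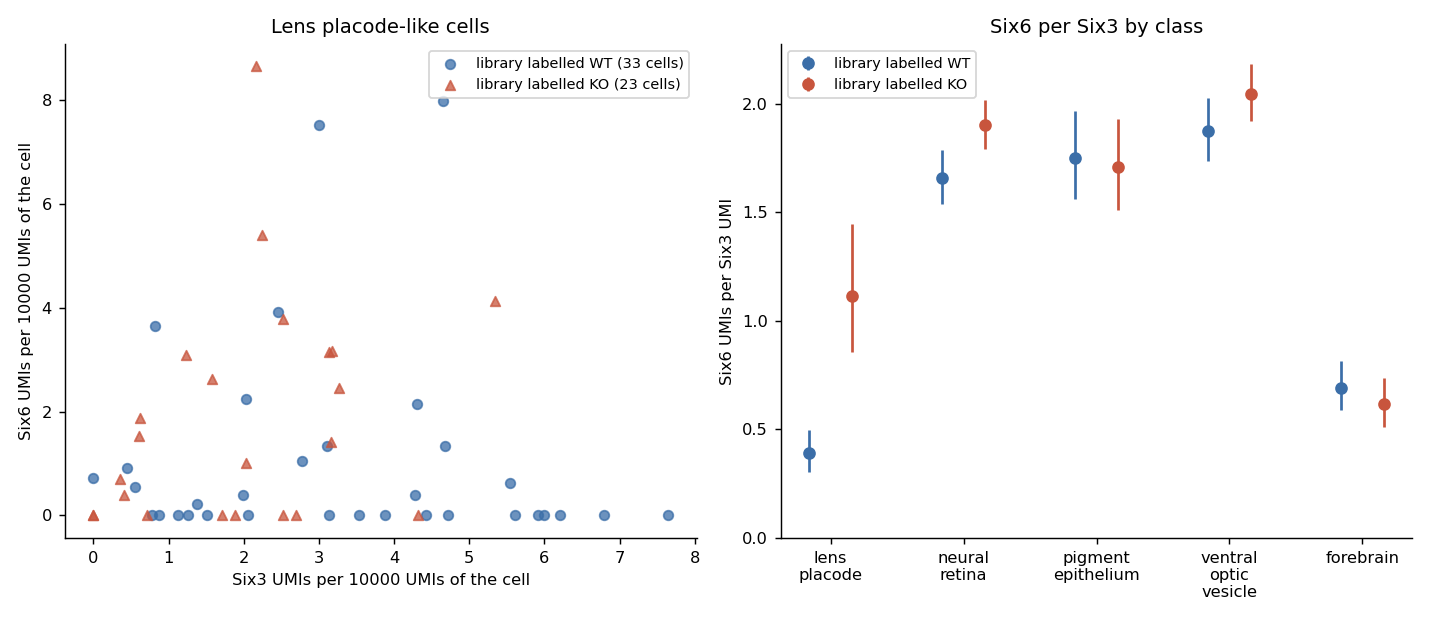
Left, *Six3* and *Six6* UMIs per 10000 UMIs of each lens placode-like cell (circles, WT-labelled library; triangles, KO-labelled library). Right, *Six6* UMIs per *Six3* UMI in 5 classes with exact 95% counting intervals; the lens placode-like value is 0.390 in the WT-labelled library and 1.11 in the KO-labelled library, while the optic vesicle-like classes lie between 1.66 and 2.05 in both.

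Single lens placode-like cells differed widely. *Six3* per 10000 UMIs of a cell ran from 0 through a median of 3.11 to 7.64 in the WT-labelled library, and from 0 through 2.03 to 5.35 in the KO-labelled library. *Six6* ran from 0 through 0 to 7.98, and from 0 through 1.41 to 8.65. The cells of the libraries overlapped in both genes. *Six6* UMIs were concentrated in few cells, with 53.3% and 50.4% of them in the 3 highest cells, whereas the 3 highest cells held 21.2% and 39.5% of the *Six3* UMIs. The 10 and 5 cells with a UMI of the optic vesicle marker *Rax* held 69 of the 90 and 79 of the 127 *Six6* UMIs. Their *Six6* level was 222 and 432 CPM. They held 96 of the 231 and 46 of the 114 *Six3* UMIs. Whether these cells carried optic vesicle RNA was not tested. With every cell thinned to 10000 UMIs, 87.9% [71.8, 96.6] and 81.0% [58.1, 94.6] of cells held *Six3*, and 36.4% [20.4, 54.9] and 57.1% [34.0, 78.2] held *Six6*; before thinning the shares were 97.0% and 91.3%, and 48.5% and 65.2%. The intervals of the thinned shares overlapped between the libraries for both genes. Among erythrocyte-like cells 5.26% and 5.77% held *Six6* after thinning. Thinning left out 2 lens placode-like cells of the KO-labelled library and none of the other.

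**Figure D2:**
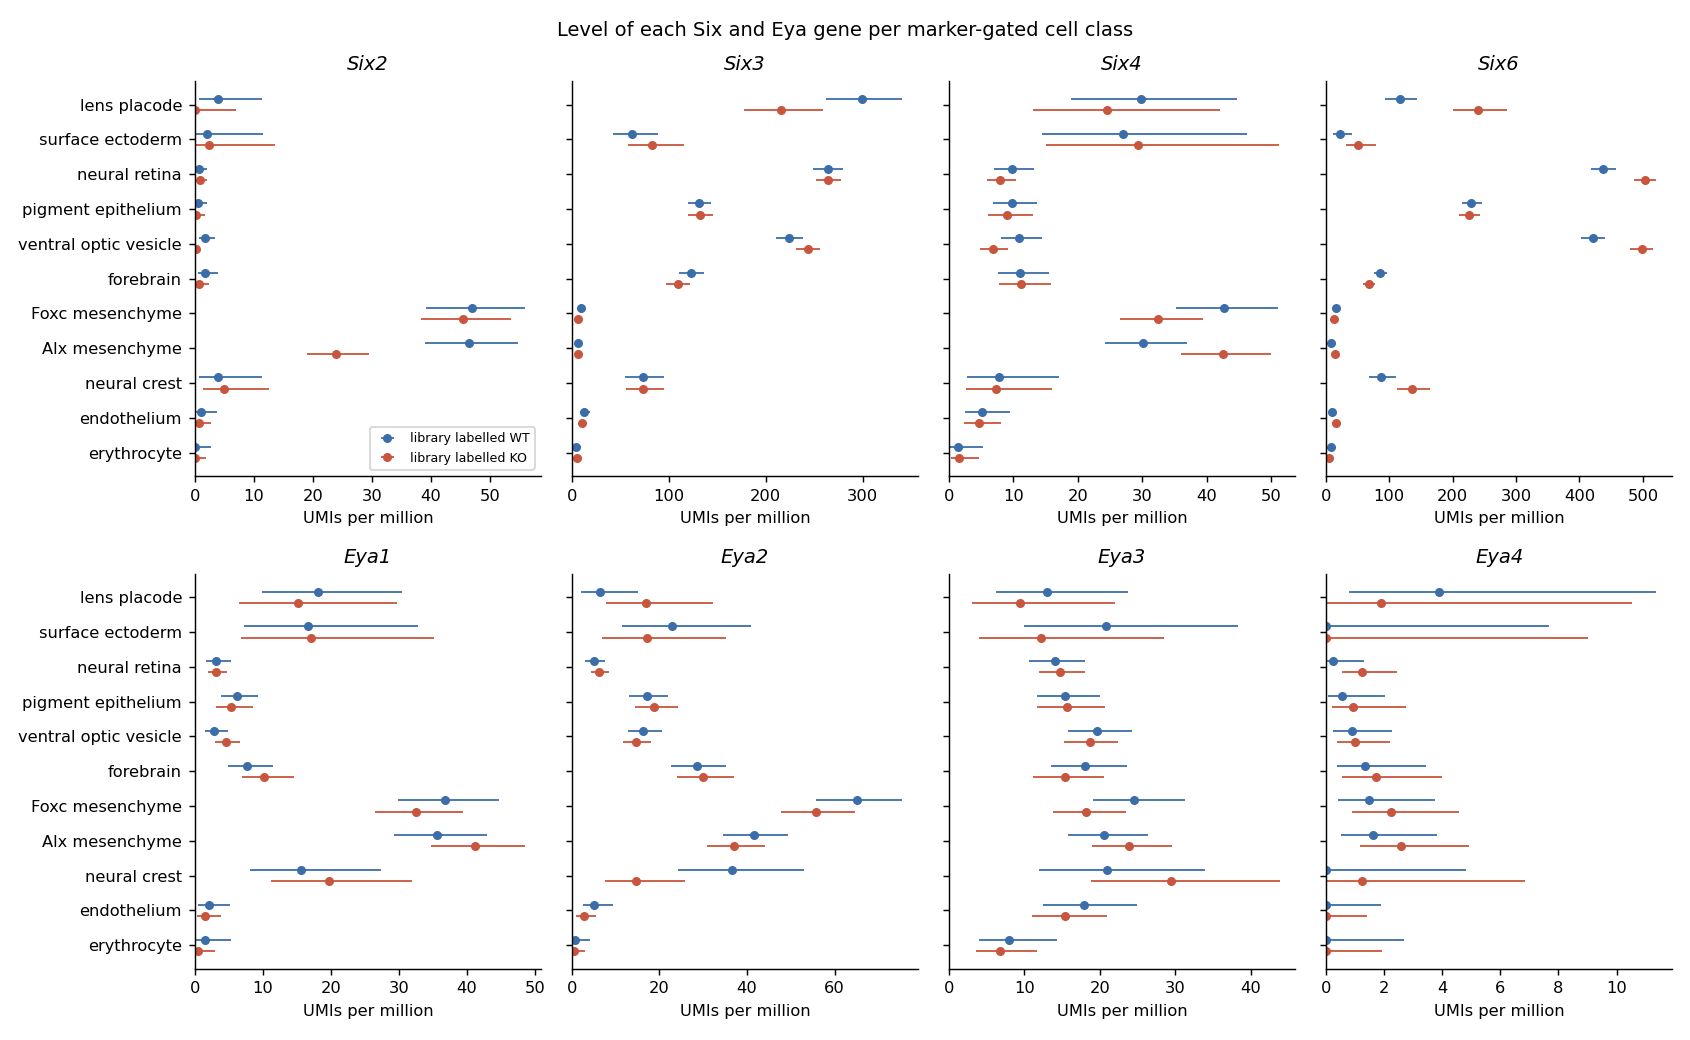
Level of each gene in CPM (x axis, starting at 0 and scaled per gene) in the 11 marker-gated classes, with exact 95% Poisson intervals, for the WT-labelled library (blue) and the KO-labelled library (red). *Six3* is high in lens placode-like, optic vesicle-like and forebrain-like classes, *Six6* is highest in neural retina-like and ventral optic vesicle-like ones, *Six2* and *Eya1* in both mesenchyme-like classes, and *Eya4* stays at or under 3.89 everywhere.

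*Six2* was found mainly in mesenchyme-like cells, with few UMIs where its neighbour *Six3* was high. Foxc-high mesenchyme-like cells held 47.0 [39.2, 55.9] and 45.5 [38.4, 53.6] CPM and Alx-high mesenchyme-like cells 46.4 [39.1, 54.7] and 23.9 [19.0, 29.6] CPM. In the other 9 classes *Six2* was at most 4.92 CPM, in neural crest-like cells on 4 UMIs. Neural retina-like cells, where *Six3* was abundant, had 0.713 and 0.934 CPM, and no *Six2* UMI was found in the 38 and 52 erythrocyte-like cells, a count that allows up to 2.19 and 1.58 CPM. None was found either in lens placode-like cells of the KO-labelled library, where the interval reaches 6.97 CPM.

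*Six4* was shared by mesenchyme and ectoderm. It was 42.6 [35.2, 51.1] and 32.5 [26.5, 39.4] CPM in Foxc-high and 30.1 [24.2, 36.9] and 42.6 [36.0, 50.03] CPM in Alx-high mesenchyme-like cells. Lens placode-like cells held 29.8 [18.9, 44.7] and 24.6 [13.1, 42.0] CPM and surface ectoderm-like cells 27.1 [14.4, 46.3] and 29.3 [15.1, 51.2] CPM, on 23 and 13 and on 13 and 12 UMIs. Unlike *Six3* and *Six6*, it did not separate these ectoderm classes: the lens placode-like level was 1.10 [0.534, 2.36] and 0.838 [0.353, 2.01] times the surface ectoderm-like one, intervals that reach past 2-fold in at least 1 direction. The neural classes were lower, with 9.74 and 7.94 CPM in neural retina-like, 9.82 and 9.10 in pigment epithelium-like, 10.96 and 6.78 in ventral optic vesicle-like and 11.1 and 11.3 in forebrain-like cells. Neural crest-like cells held 7.85 and 7.38 CPM, endothelium-like cells 5.13 and 4.61 CPM and erythrocyte-like cells 1.46 and 1.58 CPM.

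*Eya1* and *Eya2*, the co-activators best known from ear, kidney and muscle, were highest in mesenchyme-like cells. *Eya1* was 36.7 [29.9, 44.7] and 32.5 [26.5, 39.4] CPM in Foxc-high and 35.6 [29.2, 43.0] and 41.1 [34.7, 48.5] CPM in Alx-high mesenchyme-like cells. Its levels were 15.7 and 19.7 CPM in neural crest-like, 18.1 and 15.1 in lens placode-like and 16.7 and 17.1 in surface ectoderm-like cells, on 7 to 16 UMIs each. In the neural classes it was between 2.91 CPM, in ventral optic vesicle-like cells, and 10.2 CPM, in forebrain-like cells. Neural retina-like cells had 3.09 and 3.11 CPM.

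*Eya2* was highest in Foxc-high mesenchyme-like cells, at 65.0 [55.8, 75.3] and 55.7 [47.8, 64.6] CPM, above Alx-high mesenchyme-like cells at 41.5 [34.6, 49.4] and 37.1 [31.0, 44.1] CPM in both libraries. It was graded across the neural classes. Forebrain-like cells held 28.5 [22.8, 35.2] and 30.03 [24.1, 37.0] CPM, pigment epithelium-like cells 17.1 [13.1, 22.0] and 18.8 [14.4, 24.2] CPM, ventral optic vesicle-like cells 16.3 [12.8, 20.5] and 14.6 [11.7, 18.0] CPM and neural retina-like cells 4.99 [3.09, 7.63] and 6.22 [4.45, 8.48] CPM. The order of these 4 was the same in both libraries, and the intervals of pigment epithelium-like and ventral optic vesicle-like cells overlapped. Surface ectoderm-like cells held 22.9 and 17.1 CPM and lens placode-like cells 6.48 and 17.0 CPM. In neural crest-like cells *Eya2* was 36.6 [24.3, 52.9] and 14.8 [7.62, 25.8] CPM, on 28 and 12 UMIs, under the minimum of 50 used for ratios. Endothelium-like (5.13 and 2.69 CPM) and erythrocyte-like cells (0.730 and 0.525 CPM) held little.

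*Eya3* was found in every class. It lay between 9.45 and 29.5 CPM in the 10 classes other than erythrocyte-like cells, which held 8.03 [4.01, 14.4] and 6.83 [3.63, 11.7] CPM. Its highest classes were Foxc-high mesenchyme-like cells in the WT-labelled library (24.6 [19.1, 31.3] CPM) and neural crest-like cells in the KO-labelled library (29.5 [18.9, 43.9] CPM), and no class differed from the next in the order of levels beyond counting error in either library. Classes further apart did differ: neural retina-like cells held 14.0 [10.7, 18.1] and 14.8 [11.96, 18.1] CPM, under Foxc-high mesenchyme-like cells of the WT-labelled library and under Alx-high mesenchyme-like cells of the KO-labelled library (23.9 [19.0, 29.6] CPM). *Eya4* was barely detected, with 42 and 58 UMIs in all kept cells. Its highest level was 3.89 [0.801, 11.4] CPM in lens placode-like cells of the WT-labelled library, on 3 UMIs. No *Eya4* UMI was found in surface ectoderm-like, endothelium-like or erythrocyte-like cells, which allows up to 6.25 and 7.33 CPM in surface ectoderm-like cells.

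Seen as families, sine oculis and Eya RNA was weighted differently in neural cells and mesenchyme. Summed over 4 genes each, sine oculis genes made up 712 and 777 CPM in neural retina-like cells and Eya genes 22.3 and 25.4 CPM. Foxc-high mesenchyme-like cells held 115 and 97.4 CPM of sine oculis and 128 and 109 CPM of Eya RNA, so the families were about level there. In lens placode-like cells the sums were 449 and 479.8 CPM for sine oculis genes and 41.4 and 43.5 CPM for Eya genes. At 10000 UMIs per cell, a UMI of any of the 4 sine oculis genes was seen in 97.0% and 100% of lens placode-like and 50% and 66.7% of surface ectoderm-like cells. A sine oculis and an Eya UMI occurred together in 27.3% and 28.6% of lens placode-like, 15.6% and 18.7% of neural retina-like and 40% and 34.4% of Foxc-high mesenchyme-like cells, and in 0 of 38 and 0 of 52 erythrocyte-like cells. At the level of Eya RNA in neural retina-like cells, 10000 UMIs hold fewer than 1 Eya UMI on average, so a cell without one cannot be called negative.

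**Figure D3:**
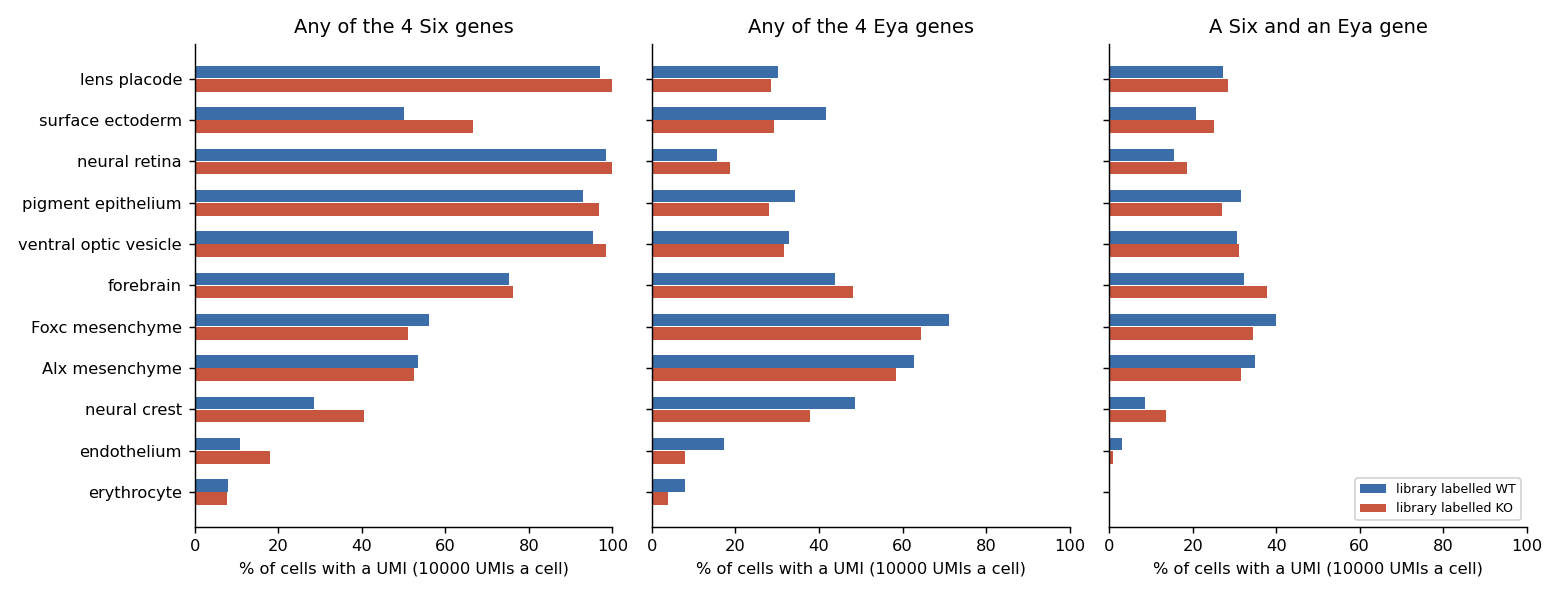
Share of cells with a UMI of any of the 4 sine oculis genes, of any of the 4 Eya genes, and of at least 1 of each (x axis, percent of cells after thinning each to 10000 UMIs), by class and library. Sine oculis UMIs were seen in 98.4% and 100% of neural retina-like cells and Eya UMIs in 71.2% and 64.4% of Foxc-high mesenchyme-like cells.

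*Six3* and *Six6* were seen together in 107 of 128 and 195 of 230 neural retina-like cells at 10000 UMIs per cell. In forebrain-like cells they were seen together in 31 of 121 and 28 of 135 cells, and in lens placode-like cells in 10 of 33 and 9 of 21. These shares, 30.3% and 42.9% in lens placode-like cells, were close to the product of the 2 single shares, 32.0% and 46.3%.

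The contrast between the placode and its surroundings was then taken within each library. *Six3* was 4.79 [3.26, 7.26] times as high in lens placode-like as in surface ectoderm-like cells of the WT-labelled library, from 299 against 62.5 CPM. In the KO-labelled library the ratio was 2.59 [1.75, 3.92], from 215 against 83.0 CPM. *Six6* gave 5.09 [2.71, 10.6] and 4.68 [2.93, 7.82]. Optic vesicle markers also differed between these classes. They summed to 399 CPM in lens placode-like against 102 in surface ectoderm-like cells of the WT-labelled library, and to 535 against 186 in the other. The sums include *Hmx1*, which was higher in lens placode-like than in neural retina-like cells (below). The part of these markers in the *Six6* ratios was not tested. Nor was that of *Dmrta2*, used for the split and also listed for the forebrain, in the ratios of either gene. In cells with no *Rax* UMI the *Six6* ratios were 1.91 and 2.70, and the *Six3* ratios 4.51 and 2.36. With ectoderm split on *Pax6* alone, *Six3* gave 41.0 in the WT-labelled library, and *Six6* gave 13.6 in the KO-labelled library and 14.9 there with ectoderm clusters. Both genes had ratios above 1 in both libraries in each of these settings. The size of the contrast depended on how ectoderm was split. No intervals were computed for these settings, and the *Six6* ratio of 1.91 rested on 21 UMIs in lens placode-like cells. For *Eya2* the ratio was 0.283 [0.0770, 0.882] in the WT-labelled library and 0.995 [0.330, 3.14] in the KO-labelled library, on at most 11 UMIs in a class. *Eya1* had 1.09 [0.426, 2.99] and 0.884 [0.280, 2.86].

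Between the libraries, a pair of gene and class was compared where it had at least 50 UMIs over both, and a ratio of 1.5-fold or more in either direction was taken as past the fold. 41 of the 88 pairs had enough UMIs, and 6 were past the fold, 4 higher and 2 lower in the KO-labelled library. No *Eya* pair was among them. In lens placode-like cells 1 of 2 members was past the fold, where 13.4% of all genes with enough UMIs were. In ventral optic vesicle-like cells it was 1 of 5 (4.54% of all genes), in Alx-high mesenchyme-like cells 2 of 6 (5.55%), in neural crest-like cells 1 of 2 (9.36%) and in endothelium-like cells 1 of 3 (6.81%). None of 1 was past the fold in surface ectoderm-like (10.3%), of 5 in neural retina-like (3.87%), of 5 in pigment epithelium-like (6.56%), of 6 in forebrain-like (4.87%) and of 6 in Foxc-high mesenchyme-like cells (5.9%). No member reached 50 UMIs in erythrocyte-like cells (6.31%). With 1 to 6 members per class, these counts say little about the families beyond the background.

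**Figure D4:**
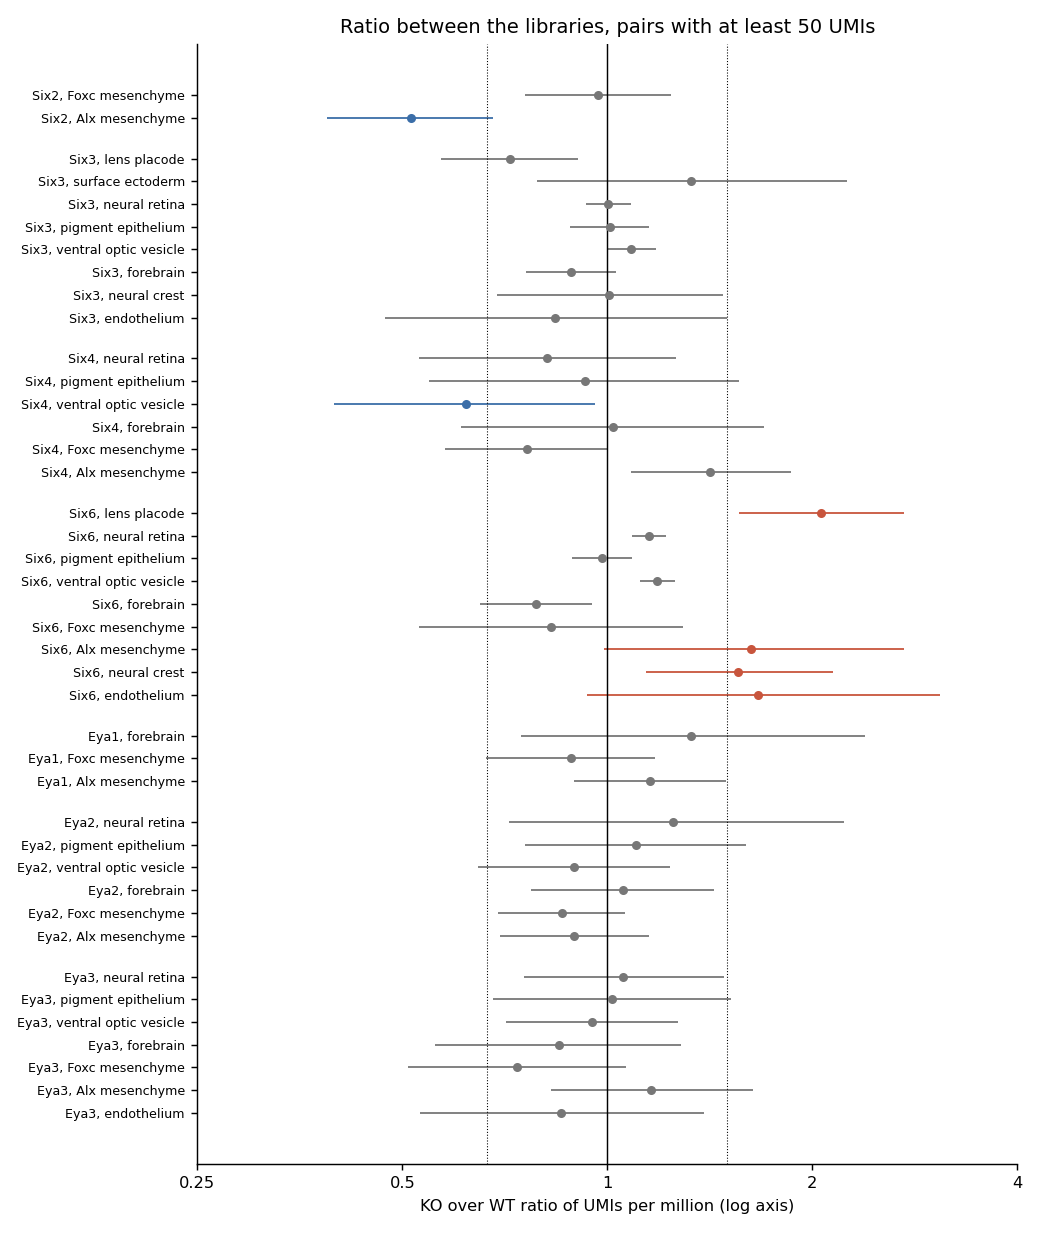
KO over WT ratio of CPM (log axis) for the 41 pairs of gene and class with at least 50 UMIs, with exact 95% counting intervals; dotted lines mark 1.5-fold either way, red and blue points lie past it. *Six6* in lens placode-like cells is the highest, at 2.06, and *Six2* in Alx-high mesenchyme-like cells the lowest, at 0.515.

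In lens placode-like cells *Six3* and *Six6* went opposite ways. *Six6* was 2.06 [1.56, 2.73] times as high in the KO-labelled library as in the WT-labelled library, and *Six3* was 0.720 [0.570, 0.905] times as high, which is lower but within the fold. With a stricter gate, which kept fewer cells, the *Six6* ratio was 4.31. *Pax6* had 0.705 [0.575, 0.862] there. Markers of the optic vesicle, which lies against the placode, also differed: their sum over 12 genes was 399 and 535 CPM in lens placode-like cells, with none of the 12 at 0 in either library. Of the 12, 8 were higher and 4 lower in the KO-labelled library. *Vax2*, a gene of the ventral optic vesicle, had 3.89 and 51.0 CPM (3 and 27 UMIs) and *Pax2* 11.7 and 39.7 CPM. *Rax*, a gene of the whole optic vesicle, was level at 46.6 and 47.2 CPM. *Hmx1*, listed here for the neural retina, had 158 and 149 CPM, above its 124 and 117 CPM in neural retina-like cells. It was thus not particular to the optic vesicle here, yet gave 122 of the 308 and 79 of the 283 UMIs of the sum. In surface ectoderm-like cells the 12 markers summed to 102 and 186 CPM. Mesenchyme markers summed to 69.9 and 92.6 CPM in lens placode-like cells. The part of this RNA in the *Six6* difference was not tested. In lens placode-like cells with no *Rax* UMI, 23 and 18 cells, *Six6* was 45.6 and 139 CPM, a ratio of 3.04 [1.79, 5.35], and *Six3* was 293 and 196 CPM, a ratio of 0.670 [0.493, 0.903]. The other classes compared without *Rax* were those where *Six6* was past the fold upward over all cells. There *Six6* was 10.8 and 45.8 CPM in neural crest-like, 3.23 and 11 in Alx-high mesenchyme-like and 1.76 and 8.20 in endothelium-like cells. These values rest on 6 and 22, 9 and 34, and 3 and 17 UMIs. *Six3* in the same cells was 10.8 and 22.9, 2.51 and 5.18, and 3.53 and 6.27 CPM, on at most 16 UMIs each and with intervals of the ratio that included 1. Foxc-high mesenchyme-like and erythrocyte-like cells were not compared this way. Over all their cells *Six6* was lower in the KO-labelled library (16.2 and 13.4, and 8.03 and 4.20 CPM).

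In the optic vesicle-like classes the differences were small and the depth large. *Six6* was 1.15 [1.09, 1.22] times as high in neural retina-like and 1.18 [1.12, 1.26] times as high in ventral optic vesicle-like cells, on 1842 and 3233 and on 1881 and 2937 UMIs. Pigment epithelium-like cells gave 0.983 [0.888, 1.09] and forebrain-like cells 0.786 [0.650, 0.951]. *Six3* was level in neural retina-like (1.003 [0.929, 1.08]) and pigment epithelium-like cells (1.01 [0.882, 1.15]), with intervals close around 1. It had 1.09 [1.0002, 1.18] in ventral optic vesicle-like and 0.885 [0.760, 1.03] in forebrain-like cells. *Six4* in ventral optic vesicle-like cells was past the fold at 0.619 [0.397, 0.960], on 49 and 40 UMIs, was within the fold with a looser gate (0.763), and turned to 1.54 when cells were thinned to 10000 UMIs.

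In mesenchyme, *Six2* was the member that stood out. In Alx-high mesenchyme-like cells it was 0.515 [0.388, 0.679] times as high in the KO-labelled library, from 46.4 and 23.9 CPM, with 73 of 148 and 51 of 209 cells holding a UMI. In Foxc-high mesenchyme-like cells the ratio was 0.968 [0.758, 1.24]. The Alx-high class was made up differently in the libraries. Of its cells, 52.7% and 31.6% fell in 1 cluster with *Foxc1* and *Foxc2* among its leading genes, in which *Six2* was 54.5 and 42.8 CPM, and 32.4% and 63.6% in 1 with *Prrx1* and *Alx1* among its leading genes, in which it was 23.5 and 14.0 CPM. With classes taken from the clusters in place of the marker gate, the *Six2* ratio in Alx-high mesenchyme-like cells was 0.994. *Six4* was 1.42 [1.08, 1.86] in Alx-high and 0.762 [0.578, 1.003] in Foxc-high mesenchyme-like cells. *Eya1* (1.16 [0.894, 1.496] and 0.884 [0.664, 1.18]), *Eya2* (0.894 [0.695, 1.15] and 0.857 [0.691, 1.06]) and *Eya3* (1.16 [0.826, 1.64] and 0.737 [0.509, 1.07]) had intervals that included 1 in both.

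The other pairs past the fold were *Six6* in classes where few cells held it: 1.56 [1.14, 2.14] in neural crest-like, 1.63 [0.989, 2.73] in Alx-high mesenchyme-like and 1.66 [0.933, 3.08] in endothelium-like cells. For the last 2 classes the interval included 1. Other settings moved these ratios: *Six6* in Alx-high mesenchyme-like cells was within the fold with clusters (1.16) and without the cells of clusters held mostly by 1 library (1.48), *Six6* in neural crest-like cells was within it with a stricter gate (1.49) and at 2.96 with clusters, and *Six6* in endothelium-like cells was at 4.08 with doublets removed. Optic vesicle markers summed to 251 and 398 CPM in neural crest-like cells, to 21.2 and 38.0 CPM in Alx-high mesenchyme-like cells and to 39.0 and 99.1 CPM in endothelium-like cells, and their part in these ratios was not tested. Among the Eya genes, the 16 pairs with enough UMIs had ratios from 0.737 to 1.33, and all their intervals included 1.

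Further genes of the network were taken from a list of 34 that holds Pax and Dach genes, partners of the proteins of both families, and genes described downstream of them in some tissue. 32 were in the matrices. In lens placode-like cells 11 had at least 50 UMIs, of which 1 was past the fold upward and 1 downward, beside 13.4% of all genes. *Tle1*, a Groucho-type co-repressor, was 1.51 [0.875, 2.61] times as high in the KO-labelled library, and *Ppp2r1a*, the scaffold subunit of protein phosphatase 2A, 0.584 [0.394, 0.850] times. None was past it of 21 in neural retina-like (beside 3.87% of all genes) and of 18 in pigment epithelium-like cells (6.56%). The same held for 14 in Alx-high mesenchyme-like (5.55%) and 12 in endothelium-like cells (6.81%). Elsewhere the counts were 0 higher and 2 lower of 7 in surface ectoderm-like (beside 10.3% of all genes), 0 and 1 of 20 in forebrain-like (4.87%), 1 and 1 of 14 in Foxc-high mesenchyme-like (5.9%), 2 and 0 of 13 in neural crest-like (9.36%) and 0 and 1 of 5 in erythrocyte-like cells (6.31%).

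To describe which genes shared these patterns, log2(CPM + 10) was correlated over the 11 classes of both libraries, 22 points that share libraries and depth, for 11034 genes with at least 200 UMIs. The patterns most like *Six3* were *Pax6* (r = 0.969), *Tox2* (0.962) and *Bnip3l* (0.948), and those most like *Six6* *Cntfr* (r = 0.938), *Six3* (0.93) and *Rax* (0.921). For *Six2* they were *Col1a1* (r = 0.985), *Fap* (0.979) and *Dpep1* (0.975), and for *Six4* *Mpped2* (r = 0.932), *Gpc3* (0.93) and *Cdo1* (0.918). By rank the *Six2* likenesses were lower, with Spearman's rho of 0.573, 0.440 and 0.593 for these 3 genes, and for *Six4* and *Mpped2* rho was 0.713. *Pax6*, *Rax* and *Col1a1* are themselves gate markers, so their likeness is in part built in. *Eya1* was closest to *Efna2* (r = 0.964), *Parm1* (0.934) and *Igdcc3* (0.92), *Eya2* to *Lnp* (r = 0.917), *Ptch1* (0.895) and *Oaz1* (0.878), and *Eya3* to *Ccnt1* (r = 0.885), *D15Ertd621e* (0.879) and *Chd9* (0.877). Among the members, *Six3* and *Six6* had r = 0.93, *Six4* and *Eya1* 0.878, *Six2* and *Eya1* 0.818, and the neighbours *Six2* and *Six3* -0.548. *Eya4* had too few UMIs to be included.

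Over all kept cells, without classes, *Six3* was 125 and 129.6 CPM, *Six6* 208 and 236, *Eya2* 22.6 and 21.6, *Eya3* 18.4 and 17.2, *Six4* 16.3 and 15.4, *Eya1* 12.1 and 12.2, and *Six2* 11.3 and 8.79. These sums mix classes whose shares differed between the dissections. The values per class do not mix classes, but a class can itself be made up differently in the libraries, as the Alx-high mesenchyme-like class was. The 863 cells that passed no gate held 3691 *Six6* and 2111 *Six3* UMIs, at 226 and 129 CPM.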

How the data were processed

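1 WT and 1 KO embryo gave 1 single-cell 3′ library each. The authors ran Cell Ranger against mm10 (GRCm38) and joined both libraries by its aggr step, which may thin reads; the deposited values are raw UMI counts for every gene in every cell. 27645 gene identifiers matched GENCODE M21. The study's limits of 1500 to 8000 genes per cell and 5% mitochondrial UMIs were applied (its methods print 0.05 with a percent sign, read here as a fraction), and left the numbers of cells that it states. Each marker was turned into a z-score of log(1 + UMIs per 10000), capped at 5, and averaged per class. A cell joined the class that led the next by 0.3 (neural, mesenchyme) or 0.8 (other classes), with at least 3 markers detected, and then a subclass that led by 0.2. Lens placode-like and surface ectoderm-like cells were split at equal scores, without 8 genes that the study names for the KO ectoderm. These rules were set after the data were seen. Cells between subclasses (860), without a class (863) and 24 macrophage-like cells were left out. Doublets were not removed in the main values.

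The members and the gene lists were chosen with earlier results of these data known. Named genes were every member, network genes past the fold with at least 50 UMIs in lens placode-like or optic vesicle-like cells, and the 3 genes most like each member; *Pax6*, *Vax2*, *Pax2*, *Rax* and *Hmx1* were added after their values were seen. The network genes of ventral optic vesicle-like cells are not reported here. No p-value was computed, since each genotype has 1 library. Ratios carry intervals from the exact binomial split of UMIs. These held the true value at about the stated rate on data simulated with Poisson counting error alone, the error they assume. The simulation had no spread between cells or embryos, so it cannot show how the intervals fare where few cells hold most UMIs. A count of 0 was read as up to 3 counts. Clusters (Leiden, 40 principal components, none of the 8 genes used), Scrublet, TMM and other gates served as alternatives. Python 3.11.15, numpy 2.4.6, scipy 1.17.1, scanpy 1.11.5, igraph 0.11.9, R 4.3.3 and edgeR 4.0.16 were used.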

Additional observations from a re-analysis of the deposited data

Results flagged for a closer look

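3 members had KO over WT ratios whose counting intervals lay wholly above 1 in some classes and wholly below 1 in others. Only pairs with at least 50 UMIs were looked at, which leaves out *Six6* in surface ectoderm-like cells (2.24 [1.03, 5.14]). The differences between classes were not tested, as each genotype has 1 library, and the intervals cover counting error only. *Six3* had 0.720 [0.570, 0.905] in lens placode-like and 1.09 [1.0002, 1.18] in ventral optic vesicle-like cells. *Six4* had 1.42 [1.08, 1.86] in Alx-high mesenchyme-like and 0.619 [0.397, 0.960] in ventral optic vesicle-like cells. The latter *Six4* value was 0.763 with a looser gate and 1.54 with cells thinned to 10000 UMIs. *Six6* had 0.786 [0.650, 0.951] in forebrain-like cells, against 2.06 [1.56, 2.73] in lens placode-like, 1.56 [1.14, 2.14] in neural crest-like, 1.15 [1.09, 1.22] in neural retina-like and 1.18 [1.12, 1.26] in ventral optic vesicle-like cells.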

How the results depend on the processing

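*Six6* in lens placode-like cells stayed over 1.5-fold higher in the KO-labelled library under every alternative run, from 1.71 to 4.31: 2.96 with no mitochondrial limit, 4.31 with a stricter gate and, chosen after seeing the data, 3.04 in cells with no *Rax* UMI. *Six3* there stayed below 1, from 0.575 to 0.772, and was past the fold with no mitochondrial limit (0.636), with clusters (0.575), with the mean over cells (0.610) and with cells thinned to 10000 UMIs (0.607). Thinning, which leaves few UMIs, gave 11 pairs past the fold in place of 6, and turned *Six4* in ventral optic vesicle-like cells to 1.54. The lens placode-like class had 468 genes past the fold at 50 UMIs, 5827 with no minimum and 51 at 200 UMIs. The lens placode over surface ectoderm ratio of *Six3* was 41.0 in the WT-labelled library with ectoderm split on *Pax6* alone. That of *Six6* was 13.6 with *Pax6* alone and 14.9 with ectoderm clusters in the KO-labelled library, and 1.91 and 2.70 in cells with no *Rax* UMI. The cause of these changes was not tested. Scaling by TMM or median ratios moved no class by over 0.1 on the log2 scale; *Six6* in neural crest-like cells was then within the fold with TMM (1.49). Scrublet at a score of 0.25 marked 21 and 31 cells, 1 of them lens placode-like. Clusters gave no ventral optic vesicle-like class. No paired analysis was possible because each group has 1 library; no library could be left out for the same reason. Depth limits the small classes: a member other than *Six3* or *Six6* had at most 23 UMIs in the ectoderm-like classes, and no member had over 13 in erythrocyte-like cells.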
